A study of Mus musculus with 20 samples.

Results

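The clustered protocadherin locus was examined as the interval chr18:36900001-38150000 of the mouse mm9 build, 1.25 Mb that was set to hold the alpha, beta and gamma protocadherin clusters. Its members were all called peaks with at least 1 base in the interval, 2090 of the 4480164 peaks in 10 peak lists. Each list came from 1 library of chromatin immunoprecipitation followed by sequencing on mouse embryonic fibroblasts, C57BL/6 cells from embryos at stage E13.5, at passage 4 and grown in 10% serum. The groups were pRb in arrested WT and SS cells, pRb in proliferating WT and SS cells, H3K27me3 in arrested WT and SS cells, H3K27me3 in proliferating WT and SS cells, and Ezh2 in WT and SS cells made quiescent by serum deprivation. The proliferating cells were labelled as asynchronously growing. WT is wild type, and SS is a mutant genotype that the labels name and do not spell out. One field of the labels gives the arrest of the pRb libraries as confluence and another as 0.1% serum for 72 h, whereas for H3K27me3 and Ezh2 both fields give serum deprivation. Per the labels, 5 antibodies were used against pRb. Every group had 1 library, so no difference below could be checked against replicates or tested.

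Clustered protocadherins are cell surface adhesion proteins, best known from neurons, where each cell uses a small and partly random choice of the variable first exons and so carries its own surface identity. In the alpha and gamma clusters the variable exons are spliced to shared constant exons, while each beta gene is a single exon. H3K27me3 is a repressive histone mark placed by Polycomb repressive complex 2, whose catalytic subunit is Ezh2, and pRb is the retinoblastoma tumour suppressor. In the RefSeq table of a later assembly (GRCm38) the order along the chromosome runs from Zmat2 through 14 alpha genes (Pcdha1 to Pcdhac2), 22 beta genes (Pcdhb1 to Pcdhb22), Slc25a2 and Taf7, and 22 gamma genes (Pcdhga1 to Pcdhgc5) to Diaph1 and Hdac3. That table was used for names and order only. Peaks were therefore placed by mm9 position and assigned to no single gene, and the extent of the clusters within the interval was not analysed here.

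The libraries differ in ways that touch what follows. The list lengths ranged from 77809 peaks (proliferating WT pRb) to 1184135 (SS Ezh2), and the sequencing depth behind them is unknown. The arrested WT H3K27me3 list stands apart from the other 3 of that mark: on the autosomes its median peak length was 138 bp, against 439 bp in the arrested SS list, and 735 bp (WT) and 705 bp (SS) in the proliferating ones. In the locus 150 of its 315 peaks had the shortest length in the list, 133 bp. Covered length ratios, step calls and ratios to the surroundings that rest on that list are given beside those from peaks of at least 500 bp. Overlap shares, island coverage and other values that rest on it were not recomputed for such peaks.

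H3K27me3 formed a few separate islands in the locus. A broad covered domain lay next to its upper end and another at some distance below its lower end, with a shorter covered stretch directly against that end. Proliferating WT peaks covered 4.95% of the locus and 33.1% of the surroundings, defined as 1 Mb on each side, and 9.81% of the autosomes. Proliferating SS peaks covered 6.19% of the locus, 35.6% of the surroundings and 11.8% of the autosomes. Arrested SS peaks covered 2.77%, 20.7% and 6.66%, and arrested WT peaks 6.02%, 13.6% and 7.71%. In all 4 lists the locus was covered less than either side of it and less than the autosomes.

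The share covered in the locus over that of the surroundings was 0.149 (WT) and 0.174 (SS) for proliferating cells, 0.134 for arrested SS and 0.444 for arrested WT cells. With surroundings of 2 Mb on each side it was 0.258, 0.283 and 0.224 in the first 3 of these lists. With peaks of at least 500 bp the arrested WT ratio was 0.283. The surroundings held 2 long covered domains. The longest run of steps of 20 kb covered to at least 20% in both proliferating lists spanned 380.0 kb on the lower side, chr18:36060001-36440000, covered to 72.3% in WT and 76.1% in SS cells. On the upper side it spanned 260.0 kb from the locus end, chr18:38150001-38410000, covered to 67.3% and 69.0%. The 460.0 kb between the lower domain and the locus were less covered than the domain, to 8.53% (WT) and 10.0% (SS) in proliferating cells. These values stand beside 9.81% and 11.8% over the autosomes. In arrested cells the stretch was covered to 5.51% (WT) and 3.87% (SS), beside 7.71% and 6.66%. In each proliferating list 12 of its 23 steps were at 0, beside 58.3% (WT) and 49.3% (SS) of autosomal steps. Its steps next to the locus were covered more. In proliferating cells 36860001-36880000 had 40.7% (WT) and 35.0% (SS), and 36880001-36900000 had 35.6% and 39.1%.

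Set against the autosomes as a whole, the locus was not extreme. Of 1889 autosomal windows of the same length, laid end to end, 44.3% were covered less than the locus in proliferating WT and 40.9% in proliferating SS cells, and the arrested lists gave 35.3% (SS) and 33.8% (WT). The median window was covered to 6.32% in proliferating WT cells, and the locus to 4.95%. In all 4 lists the locus lay below the median window, but not among the least covered windows.

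**Figure D1:**
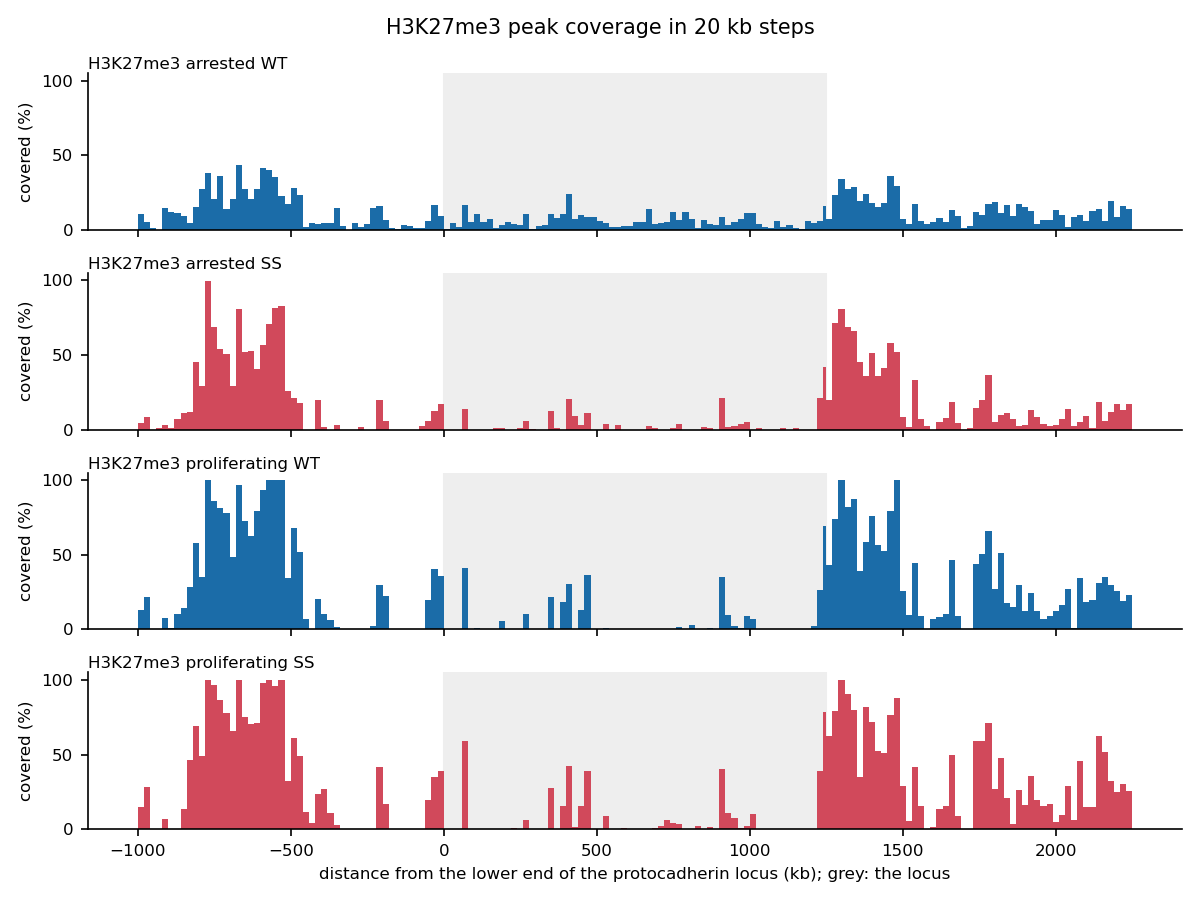
H3K27me3 peak coverage (percent of each 20 kb step, vertical axis) against distance from the lower end of the locus in kb (horizontal axis), 1 library per panel, blue for WT and red for SS; the grey area is the locus, whose last step is 10 kb wide. Most locus steps are at or near 0 in the arrested SS and both proliferating lists, the surroundings reach 100% in the proliferating lists, and arrested WT peaks are spread over every step.

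**Figure D2:**
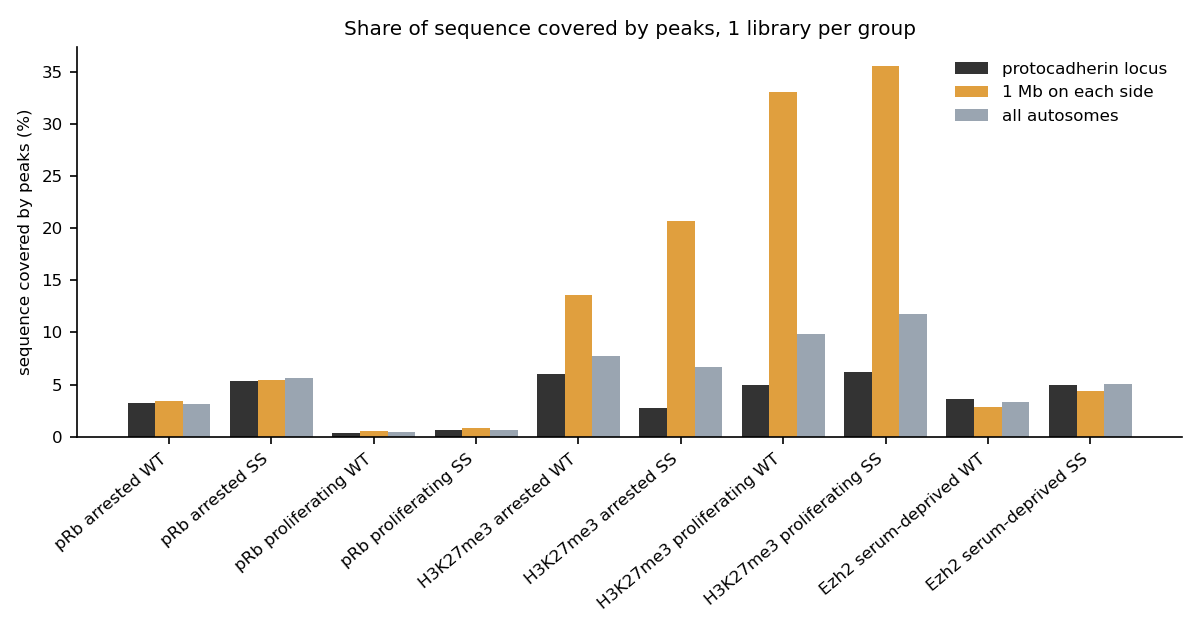
Percent of sequence covered by peaks (vertical axis, from 0) in the locus, in 1 Mb on each side and over all autosomes, for each of the 10 libraries. The H3K27me3 lists have the locus bar below both others, while the 3 bars of each arrested pRb and Ezh2 list are close to each other.

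Described in 63 steps of 20 kb, of which the last is 10 kb wide, H3K27me3 in proliferating cells was found in a minority of steps. The proliferating WT list had 0 coverage in 41 of 63 steps, a share of 65.1%, against 17.0% of the surrounding steps and 58.3% of the 119812 autosomal steps in which any list had a peak. The proliferating SS list had 0 coverage in 37 steps (58.7%), against 19.0% and 49.3%. The arrested SS list had 33 such steps (52.4%), against 16.0% and 36.2%. The arrested WT list had none, against 0.85% of the autosomal steps.

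The same 7 steps were covered to at least 20% in both proliferating lists, and no other locus step reached that level in either. This share of steps, 11.1%, stands beside 54.0% of surrounding steps in WT and 56.0% in SS cells, and beside 16.5% and 19.8% of autosomal steps. These 7 steps held 72.7% of the proliferating WT and 74.1% of the proliferating SS coverage of the locus. The arrested lists took no part in choosing them. The arrested SS list covered the 7 steps to between 11.1% and 42.1% with a median of 20.8%, and the other 56 steps to between 0 and 9.37% with a median of 0. For the arrested WT list the 7 ranged from 5.87% to 23.8% with a median of 10.7%, and the others from 0.665% to 14.0% with a median of 4.64%. The steps marked in proliferating cells were therefore also the most covered in arrested SS cells, with no overlap between the 2 sets, whereas in arrested WT cells the 2 sets overlapped.

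The step at 36960001-36980000 lay nearest to the lower end. Its coverage was 40.8% (WT) and 59.0% (SS) in proliferating cells, and 16.5% (WT) and 14.1% (SS) in arrested cells. It had no covered neighbour in proliferating cells: the steps on either side of it were at 0 in both lists. The step at 37240001-37260000 was covered to 21.5%, 27.4%, 10.7% and 12.6% in the same order.

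The step at 37300001-37320000 had 30.1% (WT) and 42.3% (SS) coverage in proliferating cells, and 23.8% (WT) and 20.8% (SS) in arrested cells. It was the one locus step that reached 20% in all 4 H3K27me3 lists. The step at 37360001-37380000 was covered to 36.5%, 39.2%, 8.67% and 11.1%, and that at 37800001-37820000 to 35.1%, 40.3%, 8.64% and 20.9%. Since these steps were chosen for high proliferating coverage, nothing is read from their proliferating values being above the arrested ones.

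The last 2 steps, at 38120001-38150000, belong to the edge of the upper domain. Together they were covered to 40.6% in proliferating WT, 52.1% in proliferating SS and 28.0% in arrested SS cells. In each of these 3 lists 1 peak crossed the upper end of the locus, and its outer part was not counted in the coverage of the locus. No peak of any list crossed the lower end.

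The locus was also cut into 5 sections of 250.0 kb, a division chosen after the values were seen. H3K27me3 coverage was highest in the second section, 37150001-37400000, in all 4 lists, and lowest in the middle one, 37400001-37650000, in 3 of them. Proliferating WT peaks covered 3.77%, 10.4%, 0.062%, 4.94% and 5.61% of the sections from the lower end upward. Proliferating SS peaks covered 4.8%, 11.8%, 1.46%, 5.8% and 7.08%, and arrested SS peaks 1.24%, 5.18%, 0.834%, 3.08% and 3.53%. In proliferating WT cells the middle section held 1 peak. Arrested WT peaks varied less, from 4.52% in the last section to 8.54% in the second.

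The longest stretch without a H3K27me3 peak was 235 kb in proliferating WT cells, at 37425770-37661218, and 214 kb in proliferating SS cells, at 37917097-38130773. It was 103 kb in arrested SS cells, at 37467066-37569929, and 20.2 kb in arrested WT cells. The arrested SS gap lay within that of proliferating WT cells, in and next to the middle section, while the proliferating SS gap lay in the last section.

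Islands were then drawn from the peaks themselves, as the merged peaks of at least 1 kb in either proliferating list that overlapped a peak of the other. This definition was chosen after the values were seen. It gave 12 islands of 1.03 to 15.1 kb, of which 11 lay inside the locus and the last crossed its upper end, and together they made up 5.15% of the locus. Another 6 merged peaks of that length were found in 1 proliferating list only. The islands left a stretch of 380.0 kb between the eighth and the ninth.

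The fourth island, chr18:37297005-37308454, of 11.4 kb, was the longest of those away from the upper end. It consisted in the main of a peak of 8469 bp in proliferating WT and one of 10723 bp in proliferating SS cells, with the authors' fold enrichment at 3.56 and 3.95. Within their own lists 3.69% and 2.25% of autosomal peaks had a higher score. Arrested WT peaks covered 34.6% of it and arrested SS peaks 36.3%, and the arrested SS peak of highest score in the locus lay in it, at chr18:37301252-37302334.

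The ninth island, chr18:37805566-37813261, of 7.7 kb, had 84.7% (WT) and 98.1% (SS) coverage in proliferating cells, and 15.6% (WT) and 52.4% (SS) in arrested cells. It held the proliferating WT peak of highest score in the locus, 6206 bp long with a fold enrichment of 3.77. The second, chr18:36965797-36974833, was covered to 72.1%, 100%, 22.6% and 26.6% in the same order. The third, chr18:37247108-37251890, was covered to 81.3%, 99.3%, 8.34% and 48.0%. These 2 islands held the third longest and the second highest scoring proliferating SS peak of the locus.

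Over all 12 islands, whose proliferating coverage is fixed by their definition, arrested SS peaks covered 36.6% of the island sequence and 0.934% of the rest of the locus. Arrested WT peaks covered 19.4% and 5.3%. Both arrested lists had a peak in 11 of the 12 islands, and the tenth, of 1.05 kb, was at 0 in both. Arrested SS coverage was above arrested WT coverage in 9 of the 12, although over the whole locus it was lower. Some of these differences were small, such as 13.2% (WT) and 13.8% (SS) in the first island. This direction was not particular to the islands. The long domains of the surroundings had 26.6% (WT) and 51.1% (SS) on the lower side, and 22.1% and 48.8% on the upper side. Island coverage was not computed for peaks of at least 500 bp.

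**Figure D3:**
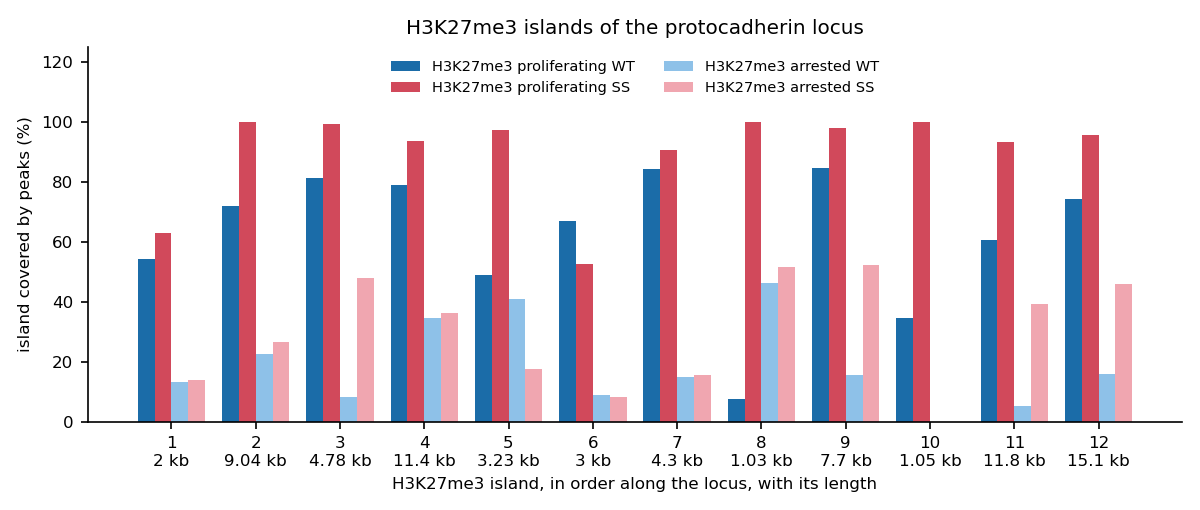
Percent of each of the 12 H3K27me3 islands covered by peaks (vertical axis, from 0), in order along the locus with the island's length (horizontal axis), for the 4 H3K27me3 libraries. Proliferating bars are high by definition; in arrested cells the SS bar is above the WT bar in 9 islands, with the widest differences at islands 3, 9 and 11.

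The first comparison was between genotypes. For H3K27me3 in proliferating cells, SS peaks covered 77.3 kb of the locus and WT peaks 61.8 kb, a ratio of 1.25 beside 1.21 over the autosomes and 1.07 in the surroundings. A step was called where one list covered at least 2 times the share of the other and the difference was at least 2 percentage points. By this rule 5 of 63 steps were higher in SS (7.94%), against 14.8% of autosomal steps, and 4 were lower (6.35%), against 3.33%. Across all steps, 33 were at 0 in both lists (52.4%, against 46.1% of autosomal and 16.0% of surrounding steps). Covered in both were 18 (28.6%, against 38.5% and 80.0%). Another 8 were covered in SS only (12.7%, against 12.2% of autosomal steps) and 4 in WT only (6.35%, against 3.19%). Coverage was higher in SS at 23 steps (36.5%, against 39.3%) and in WT at 7 (11.1%, against 14.1%).

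The largest differences in favour of SS fell on island or edge steps, which had been chosen for high coverage in these same lists. The first was at 36960001-36980000, with 40.8% in WT and 59.0% in SS cells. Next were 38120001-38140000, with 26.2% and 38.8%, and 37300001-37320000, with 30.1% and 42.3%. The largest differences the other way were smaller and lay elsewhere: 8.77% in WT and 2.05% in SS cells at 37880001-37900000, 5.51% and 0 at 37080001-37100000, and 10.2% and 5.85% at 37160001-37180000. None of the 7 most covered steps was lower in SS cells. Nothing is read from this, since a large difference in points needs high coverage. SS peaks also covered 1.21 times the WT length over the autosomes.

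The individual peaks of the 2 proliferating lists coincided in part. Such a share moves with how much the other list covers, and proliferating SS peaks covered 6.19% of the locus and 35.6% of the surroundings. In the locus 24 of 44 WT peaks, 54.5%, overlapped an SS peak by 1 bp or more (95% interval by Wilson's method 40.1 to 68.3), against 76.8% (71.0 to 81.8) in the surroundings and 68.9% over the autosomes. Of the SS peaks 17 of 44, 38.6% (25.7 to 53.4), shared sequence with a WT peak, against 67.4% and 50.2%. The intervals cover counting error only, and neighbouring peaks are not independent. For the WT share both reference values lay above the interval in the locus, and for the SS share the autosomal value lay within it.

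In arrested cells the covered length of H3K27me3 went the other way. SS peaks covered 34.7 kb and WT peaks 75.3 kb, a ratio of 0.46, beside 0.863 over the autosomes and 1.53 in the surroundings. The SS list held 53 peaks in the locus and the WT list 315, and with peaks of at least 500 bp the ratio was 0.882. The ratios over the autosomes and in the surroundings were formed from all peaks, so 0.882 has no like value beside it. With peaks of at least 500 bp the share in the locus over that of the surroundings was 0.283 in WT and 0.118 in SS cells. By the call rule 39 of 63 steps were lower in SS (61.9%), against 50.9% of autosomal and 23.0% of surrounding steps, and 3 were higher (4.76%), against 7.7% and 22.0%. With peaks of at least 500 bp 18 steps were lower and 8 higher, and the autosomal share under that setting was not computed here.

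The 3 steps higher in arrested SS cells were island or edge steps. They were 38140001-38150000, with 15.8% in WT and 42.1% in SS cells, 38120001-38140000, with 5.87% and 20.9%, and 37800001-37820000, with 8.64% and 20.9%. The steps of largest difference the other way were 37680001-37700000, with 11.7% in WT and 0 in SS cells, 37560001-37580000, with 14.0% and 2.59%, and 37640001-37660000, with 12.1% and 0.725%. At these 3 steps the proliferating WT list was at 0. The 2 longest arrested WT peaks of the locus, 1879 bp at 37560327-37562205 and 1737 bp at 37650502-37652238, lay in them and overlapped no peak of another H3K27me3 list. The third longest, 1721 bp at 37304038-37305758, overlapped a peak in each of the other 3. How many arrested WT peaks overlapped none of these lists was not counted here. The 3 arrested WT peaks of highest score, led by chr18:37897824-37897963 with a fold enrichment of 23.3, were 135 to 140 bp long and overlapped no peak of another H3K27me3 list.

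Of the arrested WT peaks in the locus 18 of 315, 5.71% (3.64 to 8.85), shared sequence with an arrested SS peak, against 38.5% in the surroundings and 15.9% over the autosomes. Here too the lists differ in cover, since arrested SS peaks covered 2.77% of the locus and 20.7% of the surroundings. In the other direction 17 of 53 SS peaks, 32.1% (21.1 to 45.5), overlapped a WT peak, beside 38.3% over the autosomes.

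Across the 63 steps, which lie in the same libraries and are not independent, Spearman's rho between H3K27me3 lists ranged from 0.402 to 0.751 in the locus and from 0.805 to 0.972 over the 100 surrounding steps. The 3 pairs with the arrested WT list gave the lowest values in the locus, 0.402, 0.504 and 0.554, and the 2 proliferating lists the highest. These correlations describe the profiles, and many locus steps are tied at 0.

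**Figure D4:**
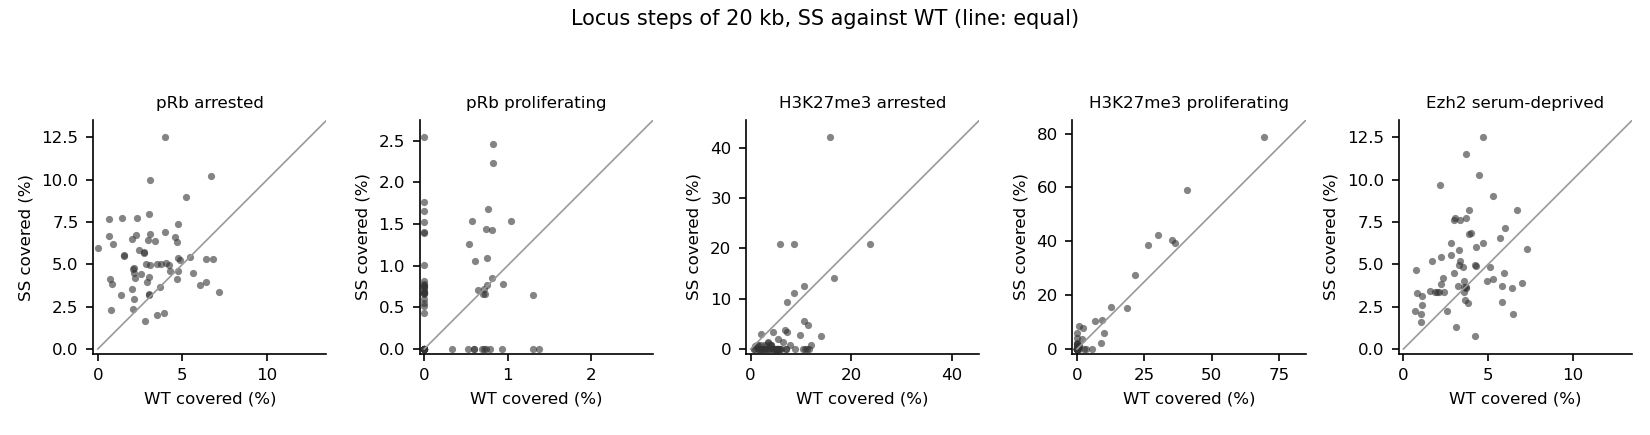
Percent of each of the 63 locus steps covered in SS (vertical axis) against WT (horizontal axis), 1 panel per antibody and growth condition, with the line of equal values; axes differ between panels. Proliferating H3K27me3 steps follow the line from 0 to the step at 69.3% and 78.6%, arrested H3K27me3 steps lie mostly along the WT axis, and pRb steps form a cloud.

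Peaks of pRb were short and scattered over the whole locus. In arrested cells they covered 3.24% of it in WT and 5.33% in SS cells, beside 3.43% and 5.48% of the surroundings and 3.17% and 5.63% of the autosomes. The median peak length was 146 and 165 bp, and no peak reached 1 kb. Coverage per step ranged from 0 to 7.18% in WT and from 1.67% to 12.5% in SS cells, and 62 of 63 steps had a peak in both lists. Few autosomal steps lacked a peak either, 3.53% in WT and 0.649% in SS cells. The most covered step of the surroundings had 10.8% in WT and 11.2% in SS cells. Of the surrounding steps 8.0% lacked a peak in WT and 0.0% in SS cells. The share covered in the locus over that of the surroundings was 0.944 in WT and 0.973 in SS cells. Gaps between peaks were not measured in the surroundings, so whether any gap was particular to the locus was not tested.

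In proliferating cells the lists were sparse, with 32 peaks in WT and 57 in SS cells. They covered 0.363% and 0.673% of the locus, beside 0.539% and 0.815% of the surroundings and 0.471% and 0.639% of the autosomes. In WT cells 34 of 63 steps were at 0 (54.0%), against 53.1% of autosomal steps, and in SS cells 23 (36.5%), against 42.7%. Of the autosomal windows of equal length 15.0% were covered less in the WT list and 58.5% in the SS list.

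Between genotypes, arrested pRb peaks covered 66.6 kb in SS and 40.5 kb in WT cells. The ratio of 1.65 lay beside 1.78 over the autosomes and 1.6 in the surroundings, and scaled to the autosomes it was 0.926. By the call rule 23 of 63 steps were higher in SS (36.5%), against 43.2% of autosomal steps, and 1 was lower (1.59%), against 4.59%. After scaling to the autosomes 8 were higher and 10 lower. Those calls needed 2-fold and at least 2% coverage in the list called higher, not a difference of 2 points. The largest difference was at the step 37240001-37260000, with 3.96% in WT and 12.5% in SS cells, followed by 37120001-37140000, with 0.68% and 7.69%. The first of these steps holds the third island, but the difference lay outside it. Within that island arrested pRb peaks covered 6.1% in WT and 5.9% in SS cells. The 3 largest differences the other way were at the edge steps 38140001-38150000 (7.18% and 3.34%) and 38120001-38140000 (6.41% and 3.94%) and the island step 37800001-37820000 (6.05% and 3.77%).

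The arrested SS pRb peak of highest score in the locus, chr18:37258163-37258322, was exceeded in score by 0.133% of the autosomal peaks of its list and overlapped no peak of any other list. That of WT cells, chr18:37451184-37451341, was exceeded by 0.208% and overlapped 1 Ezh2 peak. In the locus 25 of 209 WT peaks, 12.0% (8.23 to 17.1), overlapped an SS peak, beside 11.9% in the surroundings and 11.1% over the autosomes.

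Proliferating pRb peaks covered 8.41 kb in SS and 4.54 kb in WT cells, a ratio of 1.85 beside 1.36 over the autosomes. In this pair 1 of 63 steps was called higher in SS (1.59%), against 3.26% of autosomal steps, and 0 were lower, against 1.22%. No WT step of the locus exceeded 1.38%, so none could be called lower under the rule of 2 points. The called step, 37840001-37860000, had 0 in WT and 2.54% in SS cells. None of the 32 WT peaks overlapped an SS peak, which allows a share of up to 9.38% (the bound used here for a count of 0, 3 counts of 32), beside 1.7% over the autosomes. The proliferating SS peak of highest score, chr18:37247117-37247177, lay in the third H3K27me3 island and overlapped an arrested SS pRb peak.

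Ezh2 peaks were short, with a median length of 50 bp in WT and 51 bp in SS cells. They covered 3.58% of the locus in WT cells, beside 2.88% of the surroundings and 3.3% of the autosomes, and 4.97% in SS cells, beside 4.43% and 5.07%. Every locus step had an Ezh2 peak in both lists, and coverage per step ranged from 0.67% to 7.32% in WT and from 0.765% to 12.5% in SS cells. Few autosomal steps lacked an Ezh2 peak either, 0.558% in WT and 0.202% in SS cells. Over the 5 sections it ranged from 2.3%, in the last, to 4.41%, in the first, in WT cells, and from 4.0%, in the last, to 6.17%, in the middle one, in SS cells. The WT share was 1.24 times that of the surroundings and above that of 73.9% of the autosomal windows, and the SS share was 1.12 times and above 46.0%. In the 7 steps with high H3K27me3 coverage, Ezh2 coverage was 3.79% in WT and 5.25% in SS cells, 1.06 times that of the other 56 steps in both.

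Between genotypes Ezh2 peaks covered 62.1 kb in SS and 44.8 kb in WT cells, a ratio of 1.39 beside 1.54 over the autosomes, or 0.901 after scaling. Among the steps 15 of 63 were called higher in SS (23.8%), against 32.3% of autosomal steps, and 3 were lower (4.76%), against 2.95%. After scaling to the autosomes 6 were higher and 9 lower, again without the rule of 2 points. The largest differences were at 37380001-37400000, with 3.72% in WT and 11.5% in SS cells, at 37560001-37580000, with 4.72% and 12.5%, and at the island step 37300001-37320000, with 2.14% and 9.66%. That last step held an SS peak of 608 bp, chr18:37301221-37301828, which overlapped a peak in each of the 4 H3K27me3 lists and none in WT Ezh2. The largest differences the other way were at 36980001-37000000, with 6.5% in WT and 2.04% in SS cells, at 37740001-37760000, with 4.23% and 0.765%, and at 37100001-37120000, with 6.98% and 3.9%. Of the WT peaks 48 of 447, 10.7% (8.2 to 14.0), overlapped an SS peak, beside 10.3% in the surroundings and 11.5% over the autosomes.

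**Figure D5:**
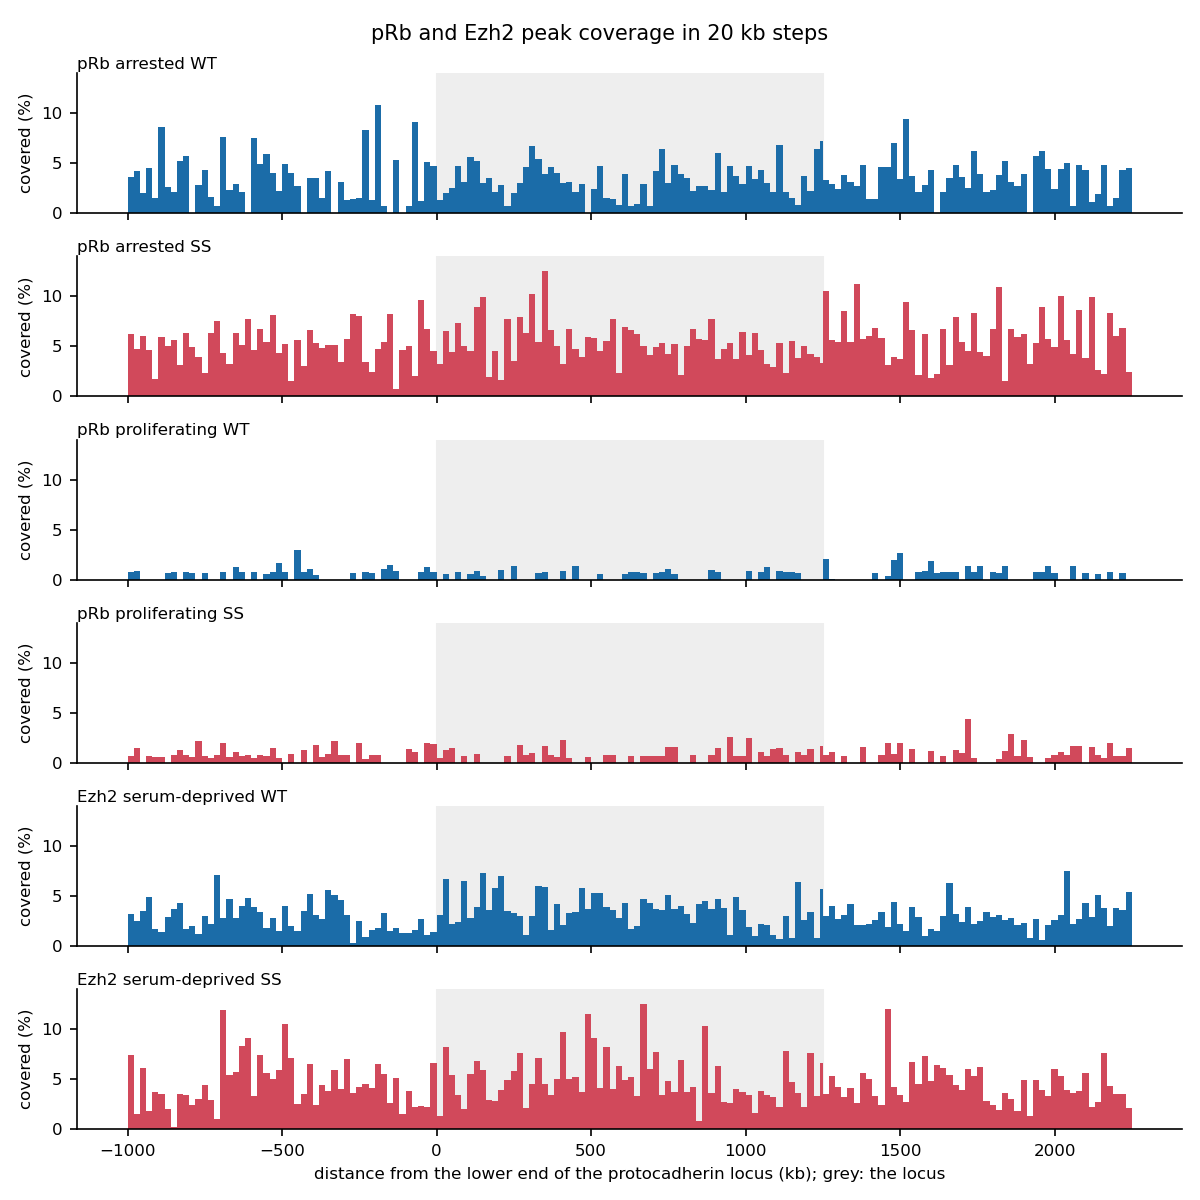
Coverage of 20 kb steps by pRb and Ezh2 peaks (percent, vertical axis, 0 to 14% in every panel) against distance from the lower end of the locus in kb (horizontal axis), 1 library per panel, blue for WT and red for SS; the grey area is the locus. Within the locus no step exceeds 12.5%, and neither antibody shows the neighbouring domains seen for H3K27me3.

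The second comparison was between arrested and proliferating cells of the same genotype. For pRb the covered length in arrested cells was 8.91 (WT) and 7.92 (SS) times that in proliferating cells, beside 6.72 and 8.81 times over the autosomes, so that the ratios after scaling were 1.33 and 0.899. By the call rule 44 of 63 steps were higher in arrested WT cells (69.8%), against 61.9% of autosomal steps, and 56 in arrested SS cells (88.9%), against 86.5%. No step was lower in either, against 0.124% and 0.0626%. A lower call needs 2 points, and the highest proliferating step of the locus was covered to 1.38% in WT and 2.54% in SS cells. In WT cells no step could therefore be called lower, and in SS cells few could. In the locus 2 of 32 proliferating WT and 6 of 57 proliferating SS peaks overlapped an arrested peak of the same genotype, 6.25% and 10.5%, beside 6.26% and 10.2% over the autosomes.

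For H3K27me3 in SS cells, arrested peaks covered 0.448 times the proliferating length, beside 0.562 over the autosomes. By the call rule 13 of 63 steps were lower in arrested cells (20.6%), against 23.3% of autosomal and 42.0% of surrounding steps, and 5 were higher (7.94%), against 10.7%. The largest differences were at island or edge steps, which high proliferating coverage had chosen, so nothing is read from their place. There 36960001-36980000 had 59.0% in proliferating and 14.1% in arrested cells, 38140001-38150000 had 78.6% and 42.1%, and 37360001-37380000 had 39.2% and 11.1%. The largest difference the other way was at 37320001-37340000, with 1.68% and 9.37%.

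In WT cells arrested peaks covered 1.22 times the proliferating length in the locus, against 0.786 over the autosomes and 0.409 in the surroundings. Here 37 of 63 steps were called higher in arrested WT cells (58.7%), against 56.1% of autosomal and 13.0% of surrounding steps, and 7 were lower (11.1%), against 15.9% and 52.0%. With peaks of at least 500 bp 16 were higher and 10 lower, again with no autosomal share computed. The largest differences in favour of proliferating cells, at steps whose high proliferating coverage had chosen them as island steps, were at 38140001-38150000, with 69.3% in proliferating and 15.8% in arrested cells, 37360001-37380000, with 36.5% and 8.67%, and 37800001-37820000, with 35.1% and 8.64%. The largest in favour of arrested cells were at 37560001-37580000, 37640001-37660000 and 37680001-37700000, all at 0 in proliferating cells, with 14.0%, 12.1% and 11.7% in arrested cells. With peaks of at least 500 bp the ratio of covered lengths was 0.559, and among the higher-scoring peaks of each list 0.905, both below 1. The ratios over the autosomes and in the surroundings were formed from all peaks only. Of the proliferating WT peaks 26 of 44, 59.1% (44.4 to 72.3), overlapped an arrested WT peak, beside 52.3% over the autosomes.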

How the data were processed

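Peak lists of 10 immunoprecipitated libraries were used (the 10 inputs were not analysed here). Groups were taken from sample titles. Per the submitters' processing notes, Bowtie2, MACS2, HOMER and bedtools were used with the mm9 build, and the sources used here do not give versions, roles or settings. The deposited pRb lists give a score per peak, at least 20, of unstated unit. The other 6 deposited lists give a score, the authors' fold enrichment (a ratio), and the −log10 p-value and −log10 q-value. Their −log10 q-value, and the pRb score, served to rank peaks within a list. Depth is unknown.

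Peaks did not overlap within a list. Covered length was counted in steps of 20 kb from the lower end of the locus. The background was the 119812 autosomal steps with a peak in any list. Windows of the locus length were kept where at least 90% of their steps were of that kind. A step was called at 2-fold and 2 percentage points. The autosomal share of called steps was formed for this rule only, not for the alternatives. Calls scaled to the autosomes used 2-fold on scaled shares. In place of the 2-point difference they asked for at least 2% unscaled coverage in the list called higher. Overlap required 1 bp, with Wilson 95% intervals. Named were, per library, the 3 most covered steps and the 3 longest and 3 highest-scoring peaks, of which the leading ones are described, and per comparison the 3 largest gains and losses of steps. Members, lists and rules were chosen with earlier results of these data known. Coverage, calls and overlap were tested on simulated lists. Alternatives were other step widths and a shifted start, 3-fold calls, scaling to the autosomes, peaks of at least 500 bp, the peaks at or above their list's autosomal median score, merging within 1 kb, other surroundings and 50% reciprocal overlap. The work was done in Python 3.11.15 with pandas 2.3.3, numpy 2.4.6 and scipy 1.17.1, and figures were drawn with matplotlib 3.10.9.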

Additional observations from a re-analysis of the deposited data

Results flagged for a closer look

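H3K27me3 coverage of the locus lay on opposite sides in the 2 growth conditions, and the difference was not tested, since each group had 1 library. The ratio of covered lengths, SS over WT, was 0.46 under arrest and 1.25 under proliferation. Over the autosomes these ratios lay on the same sides, at 0.863 and 1.21. Put the other way, arrested peaks covered 1.22 times the proliferating length in WT cells and 0.448 times in SS cells, against 0.786 and 0.562 over the autosomes. All 4 libraries enter both pairs, so the pairs are 1 observation. With peaks of at least 500 bp the values were 0.882 and 1.29 between genotypes, and 0.559 and 0.383 between growth conditions, so that the growth comparison then lay on the same side in both genotypes. It did so too among the higher-scoring peaks of each list, with 0.905 (WT) and 0.399 (SS). Autosomal ratios were formed from all peaks only, so these values have no like reference. The part of the arrested WT list, of which 150 of 315 locus peaks had the shortest length, in the pattern was not tested otherwise.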

How the results depend on the processing

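Values with no test were taken as moved where an alternative changed them by over 1.5 times, or, for overlap shares, beyond the 95% interval. Of the alternatives run, 73 of 78 left the locus over surroundings ratio, 35 of 42 the covered length ratio, 45 of 72 the share of called steps and 4 of 10 the overlap share in place. Causes were not tested. Locus over surroundings moved to 0.258, 0.283 and 0.224 with surroundings of 2 Mb for proliferating WT, proliferating SS and arrested SS H3K27me3, and with peaks of at least 500 bp to 0.283 for arrested WT H3K27me3 and 2.24 for arrested WT pRb, of which 3 peaks in the locus are that long.

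Scaled to the autosomes, the covered length ratio turned to 0.926 for arrested pRb, SS over WT, and to 0.899 for SS pRb, arrested over proliferating. It also crossed 1 for Ezh2, at 0.901, and moved to 1.33 for WT pRb and 0.797 for SS H3K27me3, arrested over proliferating. With peaks of at least 500 bp it moved to 0.882 for arrested H3K27me3 and 0.559 for WT H3K27me3, arrested over proliferating; the latter was 0.905 among higher-scoring peaks, a shift of under 1.5 times that also crossed 1. Leaving out the last 2 steps, chosen after the data were seen, moved no ratio.

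Called steps made up 38.1% of the locus for arrested pRb, and 22.2% at 3-fold, 12.7% with peaks of at least 500 bp and 60.3% with merged peaks; after scaling it was 28.6%, with more lower than higher. For Ezh2 the share was 28.6%, and 18.8% with 40 kb steps, 11.1% at 3-fold, 9.52% with long peaks, 17.5% among higher-scoring peaks and 52.4% merged; after scaling it was 23.8%, again with more lower. For proliferating pRb, 1.59% became 8.0% with 10 kb steps, 3.17% after scaling or merging, and 0.0% with 40 kb steps, shifted steps, long peaks or higher-scoring peaks. For arrested H3K27me3, 66.7% became 41.3% with long peaks. Between growth conditions, scaling gave 42.9% for WT and 38.1% for SS pRb in place of 69.8% and 88.9%. Long peaks gave 4.76% and 7.94% there and 41.3% for WT H3K27me3. The higher-scoring peaks gave 28.6% and 34.9% for pRb, and 46.0% and 12.7% for WT and SS H3K27me3, in place of 69.8% and 28.6%.

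At 50% reciprocal overlap the overlap share was 4.78% for arrested pRb, 1.59% for arrested H3K27me3, 18.2% for proliferating H3K27me3 and 2.01% for Ezh2. Among higher-scoring peaks it was 4.31% for arrested pRb and 6.33% for Ezh2. The proliferating pRb lists had no locus peak of at least 500 bp, so the ratios that need one were not formed. No paired analysis was possible because each group had 1 library. List length, depth and caller settings limit every comparison between lists.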

Other observations

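Peaks of different antibodies met in the locus as follows. Of arrested SS pRb peaks 61 of 298, 20.5% (Wilson 95% interval 16.3 to 25.4), overlapped an SS Ezh2 peak, beside 14.2% (11.4 to 17.5) in the surroundings and 16.7% over the autosomes. In WT cells the shares were 12.9% (9.03 to 18.1), 10.7% and 10.5%. Ezh2 peaks overlapped arrested H3K27me3 peaks of their genotype in 10.3% of cases in WT and 3.55% in SS cells, beside 15.9% and 24.7% in the surroundings, where H3K27me3 covered more, and 11.3% and 8.37% over the autosomes. Arrested pRb peaks did so in 11.0% and 4.36% of cases, beside 24.0% and 24.5% in the surroundings and 13.7% and 9.27% over the autosomes.

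In the H3K27me3 islands, which were drawn without pRb or Ezh2 values, arrested WT pRb peaks covered 5.33% of the sequence and 3.12% of the rest of the locus. In arrested SS cells the shares were 4.2% and 5.39%. For Ezh2 they were 4.12% and 3.56% in WT and 5.76% and 4.92% in SS cells. Each value rests on few peaks in 64.4 kb of island sequence, and the differences were not tested.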
